A study of Arabidopsis thaliana with 8 samples.

Results

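The loci described here are the mRNA loci of the Arabidopsis thaliana pericentromeres, taken by position alone. A locus of the deposited table was a member if its start lay between 12.5 and 17.5 Mb on chromosome 1, 2.0 and 5.5 Mb on chromosome 2, 11.5 and 16 Mb on chromosome 3, 2.5 and 5.0 Mb on chromosome 4, or 10 and 14 Mb on chromosome 5 (TAIR10). The nitrate reductase locus NIA2 was left out. This gave 1136 members of 24859 loci, with 368, 218, 238, 103 and 209 on chromosomes 1 to 5, and the other 23513 loci of these chromosomes were used for comparison. Small RNAs of 24-day-old Col-0 plantlets were sequenced for WT, for both single mutants (urt1-1 and xrn4-3) and for the double mutant urt1-1 xrn4-3, with 2 biological replicates each. Both mutations are T-DNA insertions, each represented by 1 allele, and all plantlets were grown in vitro in the same cycle of 12 h light at 22 °C and 12 h darkness at 18 °C. URT1 is the main terminal uridylyltransferase of mRNAs, and XRN4 is the cytosolic exoribonuclease that degrades uncapped mRNAs from the 5′ end. The design compares each mutant with WT and the double mutant with xrn4-3.

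Pericentromeres are the gene-poor, repeat-rich regions that flank the centromeres. Much of their DNA is methylated and packed into heterochromatin, and transposons and their remnants lie between the genes. In plants the RNA polymerase Pol IV and the RNA-dependent RNA polymerase RDR2 make double-stranded RNA from such repeats, DCL3 cuts it into heterochromatic siRNAs, and AGO4-bound siRNAs guide DNA methylation. The siRNAs that form on decapped or aberrant mRNAs belong to another route, in which RDR6 and the Dicers DCL2 and DCL4 act. Read lengths were not analysed here, so the values below do not separate the products of these routes.

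Several members carry sequence that occurs elsewhere in the genome, and 4 sets are shown because they bear on what a read at these loci can mean. In each line the capitals mark a 21-nt window of the TAIR10.1 gene model that the named sequences share, and lower case marks 4 flanking bases on either side. The first set comes from 3 members of the 10 highest WT levels, AT2G08986, AT2G07981 and AT1G40104. All have the window at bases 83 to 103 of the gene model, and the nuclear and organelle genome holds 589 copies of it on both strands. The authors kept reads with up to 50 mapping loci, so a read of this window alone would not be counted, and longer reads that span it were not searched here.
AT2G08986: atgtCATGTGTATGATTGAGTATAAgaac
AT2G07981: atgtCATGTGTATGATTGAGTATAAgaac
AT1G40104: atgtCATGTGTATGATTGAGTATAAgaac
The second set shows a member from the mitochondrial insertion on chromosome 2, AT2G07706, beside the mitochondrial genome itself. The window is at bases 2322 to 2342 of the gene model and has 2 copies in all.
AT2G07706: tactTCTACTTTTAACTAAACGCGAacag
mitochondrial genome: tactTCTACTTTTAACTAAACGCGAacag
The third set is a pair of neighbouring genes for RING/U-box proteins on chromosome 1, with 2 copies of the window.
AT1G35625: ttatGATCTACCAATAGTTGTCAGAgtat
AT1G35630: ttatGATCTACCAATAGTTGTCAGAgtat
The fourth set is a pair of neighbouring HXXXD-type acyl-transferase genes on chromosome 3, both raised in urt1-1 xrn4-3 as given below. Their flanking bases differ, and the window has 2 copies. Little else of PMAT2 recurs, with 0.243% of its windows found elsewhere, against 16.1% for AT3G29680.
PMAT2: aggcGGATTTCGGGTGGGGAAGACCcgtt
AT3G29680: ggtcGGATTTCGGGTGGGGAAGACCtgtt

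A total of 6045353 to 30064224 reads were counted on mRNA loci per library, of which 422220 to 1447710 fell on members. Values are reads per 1000000 counted reads (CPM), with library sizes adjusted by TMM scaling, and, where loci are compared with each other, CPM per kb of locus. The URT1 locus itself had 10.2 and 15.7 CPM in WT and 5.93 and 8.04 in urt1-1. In xrn4-3 replicate 2 it had 271 CPM, which stands apart from the 5.93 to 15.7 CPM of the other 7 libraries. The XRN4 locus ranged from 11.1 to 13.0 CPM in the 4 libraries with functional XRN4 and from 6.25 to 9.96 CPM in the 4 xrn4-3 carriers. These are small RNA levels, which do not measure the mRNAs. In whole plantlets, fewer cells of a type and less small RNA per cell cannot be told apart.

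In WT, small RNA reads were denser on pericentromeric loci than on the chromosome arms. The median member had 5.20 and 4.61 CPM per kb in the WT libraries, against 1.92 and 2.02 CPM per kb for the other loci. In urt1-1 the members' median was 4.75 and 4.29 CPM per kb, in xrn4-3 4.29 and 4.53 CPM per kb, and in urt1-1 xrn4-3 5.0 and 3.79 CPM per kb. The median of the members was thus above that of the other loci in 8 of 8 libraries, while the ranges of loci overlapped widely. Members held 8.95% and 7.70% of the reads of chromosomes 1 to 5 in WT, with both nitrate reductase loci left out. They held 9.28% and 7.55% in urt1-1, 8.08% and 8.20% in xrn4-3, and 8.83% and 5.82% in urt1-1 xrn4-3. The second urt1-1 xrn4-3 library was the lowest by either measure.

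**Figure D1:**
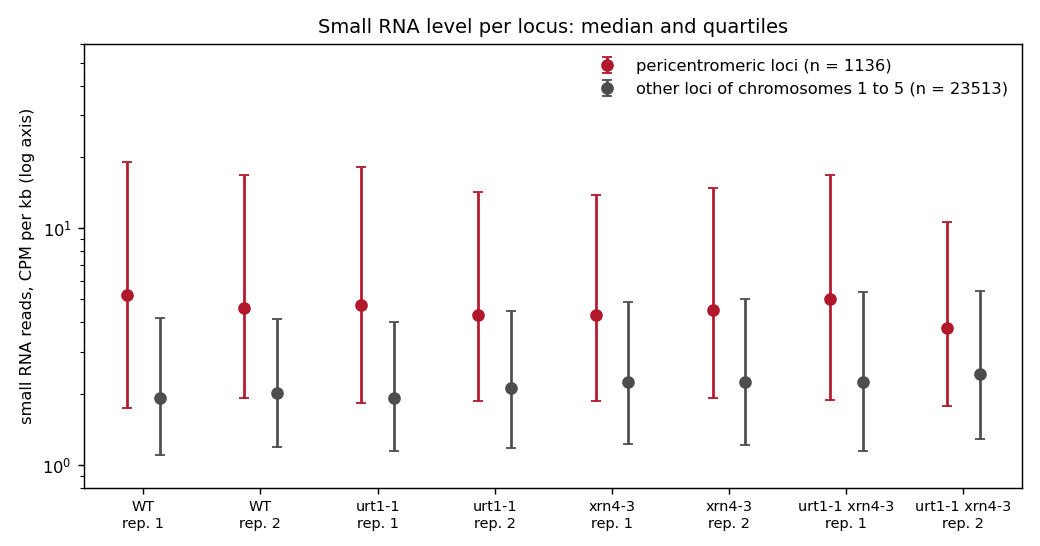
Small RNA level per locus in each of the 8 libraries, in CPM per kb on a log axis. Points are medians over loci and bars run from the lower to the upper quartile, for the 1136 pericentromeric loci (red) and the 23513 other loci of chromosomes 1 to 5 (grey). The red median lies above the grey one in 8 of 8 libraries, by 2.71 times in WT replicate 1 and by 1.57 times in urt1-1 xrn4-3 replicate 2.

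The ratio of the members' median to that of the other loci, which does not depend on how libraries are scaled, was 2.50 ± 0.296 in WT, 2.25 ± 0.309 in urt1-1, 1.97 ± 0.0752 in xrn4-3 and 1.91 ± 0.472 in urt1-1 xrn4-3 (SD, n = 2 each). The libraries of the xrn4-3 carriers ranged from 1.57 to 2.24 and the other libraries from 2.04 to 2.71, so that the groups overlapped. The overlap was between libraries of different replicate numbers: among replicates 1 the carriers had 1.92 and 2.24 and the others 2.71 and 2.47, and among replicates 2 the carriers had 2.02 and 1.57 and the others 2.29 and 2.04. The carriers' ratio was 0.814 times that of the rest (exact two-sided permutation test over 70 splits of 4 against 4 libraries, p = 0.0571, adjusted p = 0.229 over 4 tests). For urt1-1 carriers against the rest it was 0.927 times (exact p = 0.6, adjusted p = 0.714). The share of reads at members was 0.916 times for xrn4-3 carriers (exact p = 0.543, adjusted p = 0.714) and 0.943 times for urt1-1 carriers (exact p = 0.714, adjusted p = 0.714). With 4 against 4 libraries the smallest p is 0.0286, and with 2 against 2, as for a single genotype against WT, it is 0.333. No relative change of the pericentromeric level thus passed the test. Without urt1-1 xrn4-3 replicate 2, 3 of these 4 differences changed sign, and only the first kept its direction, at a log2 difference between -0.37 and -0.20 over the libraries left out in turn.

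Within the windows the level was highest at the middle. The median locus within 0.5 Mb of the middle of its window had 16.5 CPM per kb in WT (mean of both libraries per locus), and it had 6.14 CPM per kb at 0.5 to 1 Mb and 4.17 CPM per kb both at 1 to 1.5 Mb and at 1.5 to 2 Mb. At 2.5 to 3 Mb it was 2.01 CPM per kb, close to the 2.00 CPM per kb of the loci 9 to 20 Mb away. The share of 21-nt windows that recur in the genome had a median of 75.4% within 0.5 Mb and 6.13% at 0.5 to 1 Mb. The 136 loci within 0.5 Mb include much of 1 stretch, the mitochondrial insertion on chromosome 2 (bases 3239700 to 3503500). Nearly all of its span lies there, and its 63 members had a WT median of 55.8 CPM per kb. By chromosome, the members' median in WT was 11.1 CPM per kb on chromosome 2, 5.20 on chromosome 3, 4.21 on chromosome 5, 3.35 on chromosome 1 and 2.73 on chromosome 4. The 10 loci next to the window edges on the inside had 0.473 to 23.1 CPM per kb, with a median of 4.13. The 10 next to them on the outside had 1.55 to 49.7 CPM per kb, with a median of 3.59.

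**Figure D2:**
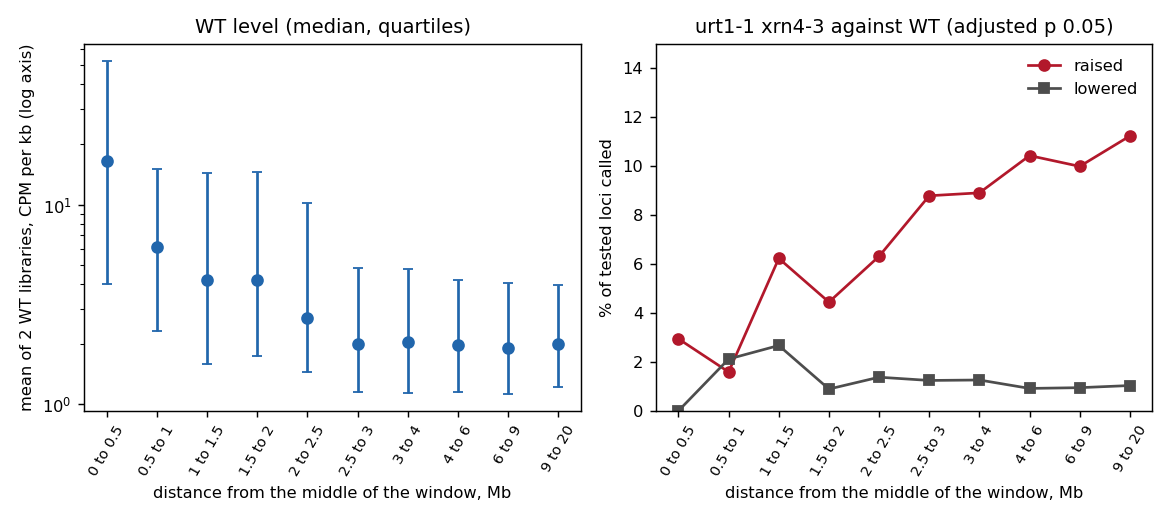
Loci of chromosomes 1 to 5 by distance from the middle of the pericentromeric window, in Mb. Left, WT level in CPM per kb on a log axis (medians with quartiles), which runs from 16.5 within 0.5 Mb to 2.00 beyond 9 Mb. The part within 0.5 Mb takes in nearly all of the span of the mitochondrial insertion on chromosome 2. Right, the percentage of tested loci raised (red) and lowered (grey) in urt1-1 xrn4-3 against WT, where the raised share is 2.94% within 0.5 Mb and 11.2% beyond 9 Mb.

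The members were then grouped by whether the sequence of their gene model recurs, a grouping made after the values were seen. Of the 1083 members matched to a gene model, 172 (15.9%) had more than 50% of their 21-nt windows elsewhere in the genome, against 512 (2.19%) of the other loci. Mitochondrial sequence made up most of 63 members, all on chromosome 2 between bases 3239700 and 3503500, where a copy of the mitochondrial genome is known to be inserted. Repeated nuclear or plastid sequence made up most of 109 members, 911 were mostly single-copy, and 53 had no matching gene model. The WT median was 55.8 CPM per kb for the mitochondrial group, 17.4 for the repeated group, 13.5 for the unmatched loci and 3.44 for the single-copy group. Single-copy loci outside the windows had 1.96 CPM per kb. The authors kept reads with up to 50 mapping loci and counted all best alignments. A read of mitochondrial, plastid or repeat origin can therefore count at these members as well as at its source, and its origin was not tested.

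The single-copy members alone also had higher medians than the single-copy loci outside the windows in 8 of 8 libraries. They were 3.34 and 3.41 CPM per kb in WT against 1.89 and 1.98, and 3.55 and 2.95 CPM per kb in urt1-1 xrn4-3 against 2.18 and 2.36. The mitochondrial group had medians of 59.0 and 46.3 CPM per kb in WT, 59.2 and 35.6 in urt1-1, 36.9 and 39.5 in xrn4-3, and 51.8 and 24.2 in urt1-1 xrn4-3. The repeated group had 17.5 and 16.6 CPM per kb in WT, 17.4 and 12.4 in urt1-1, 11.1 and 13.7 in xrn4-3, and 15.9 and 7.91 in urt1-1 xrn4-3. In both groups the lowest value came from urt1-1 xrn4-3 replicate 2, while its replicate 1 lay near or within the WT values.

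A few loci held about as many of the members' reads as all the other members together. AT2G08986 (chr2:3618058-3626460), AT1G40104 (chr1:15081952-15085893) and PRK1 (AT5G35390, chr5:13596873-13598976) took 48.6% to 52.3% of them, depending on the library. AT2G08986, an uncharacterized protein gene with 91.0% of its windows recurring, had 2725 and 2367 CPM per kb in WT, 2746 and 2476 in urt1-1, 2416 and 2322 in xrn4-3, and 2333 and 1534 in urt1-1 xrn4-3. These values were alike except for the lowest, in urt1-1 xrn4-3 replicate 2. PRK1, which encodes a leucine-rich repeat receptor kinase known from pollen, had the highest WT mean of the members, 3470.0 CPM per kb, and 0.289% of its windows recurred. It had 3554 and 3387 CPM per kb in WT, 3195 and 4087 in urt1-1, 4005 and 1058 in xrn4-3, and 929 and 1706 in urt1-1 xrn4-3. Both urt1-1 xrn4-3 libraries were below both WT libraries, but so was 1 of the xrn4-3 libraries, and the log2 fold change of -1.40 ± 0.655 (SE) did not pass the test (edgeR likelihood ratio test, adjusted p = 0.189).

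The other members among the 10 highest WT levels included repeats, organelle sequence, a pair of mostly single-copy genes and a locus without a gene model. AT3G41762, an uncharacterized protein gene (91.4% of windows recurring), had a WT mean of 2431 CPM per kb. AT2G07732 and AT2G07739, annotated as Rubisco large chain and Ycf1 proteins and lying within the mitochondrial insertion, had 2316 and 1207 CPM per kb. The chloroplast genome also held 45.6% of the windows of AT2G07732 and 59.9% of those of AT2G07739. AT5G35066, which matched no gene model, had 2146 CPM per kb. The RING/U-box pair AT1G35625 and AT1G35630 had 910 and 1043 CPM per kb, with 10.8% and 13.4% of windows recurring. AT1G35625 had 1101 and 2140.0 CPM in WT and AT1G35630 1094 and 2133 CPM, near-equal levels within each library, and reads of the shared windows cannot be assigned to 1 of the pair. None of the 10 passed the test in any comparison, and their log2 fold changes in urt1-1 xrn4-3 against WT ranged from -1.75 for AT2G07732 (adjusted p = 0.0712) to -0.37 for AT3G41762.

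Genotypes were compared at 1129 members that passed the filter on low counts, in a model fitted to all 24722 tested loci. In urt1-1 against WT, 0 members were raised and 0 lowered by the edgeR likelihood ratio test at an adjusted p of 0.05, where 0.0243% of all tested loci were raised and 0.00404% lowered. At an unadjusted p under 0.05 there were 13 members (1.15%), against 2.10% of all tested loci. The stricter quasi-likelihood test, in which edgeR takes the uncertainty of the dispersion into account, also called 0 in either direction, with 11 members (0.974%) and 1.85% of all tested loci at an unadjusted p under 0.05. The members' median log2 fold change was -0.07, and that of the other loci was 0.00.

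In xrn4-3 against WT, 24 members (2.13%) rose and 6 (0.531%) fell, where 4.19% of all tested loci were raised and 0.259% lowered. The median log2 fold change was -0.22 over the tested members and 0.07 over the other loci. The quasi-likelihood test called 10 raised and 1 lowered, against 1.99% and 0.0202% of all tested loci. The most raised was MLP165 (AT1G35260, chr1:12936849-12937787), a major latex protein-like gene, with 1.11 and 2.19 CPM in WT and 3.40 and 79.1 in xrn4-3. Its log2 fold change was 4.64 ± 1.10 (SE, adjusted p = 0.00834), and by the quasi-likelihood test it did not pass (adjusted p = 0.123). PMAT2 (AT3G29670, chr3:11527872-11529350), a malonyltransferase of phenolic glucosides, had 3.26 and 4.38 CPM in WT and 29.0 and 108 in xrn4-3, and differed by 4.17 ± 0.611 on the log2 scale (adjusted p = 3.72e-07). AT1G35560 (chr1:13115826-13117235), a TCP family transcription factor gene, rose by 4.15 ± 0.628 (adjusted p = 9.95e-07). At these 3 loci the absence of overlap with WT was a condition for naming them, and xrn4-3 replicate 2 was well above replicate 1. Of the 24 raised members, 22 were higher in replicate 2, with a median ratio of 2.50 to replicate 1. The members' median log2 fold change minus that of the other loci was -0.29 with all libraries. It was -0.23 without xrn4-3 replicate 1 and -0.34 without its replicate 2. Without WT replicate 1 or 2 it was -0.21 and -0.36. Each of these fits with a library left out leaves 1 genotype with 1 library, so shares of loci called are not compared for them here.

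The largest fall in xrn4-3 was at AT1G47389 (chr1:17378652-17379374), an uncharacterized protein gene, which had 93 and 72 reads in WT and 0 and 2 reads in xrn4-3. The ratio of xrn4-3 to WT was 0.0143, with a 95% interval for counting error alone from 0.00172 to 0.0526 (exact binomial), and the adjusted p was 2.64e-12. AT2G06025, an acyl-CoA N-acyltransferase gene that overlaps AT2G06040 in position, fell by 2.06 on the log2 scale (adjusted p = 0.00496, and 0.0650 by the quasi-likelihood test). AT1G34500, a membrane-bound O-acyl transferase gene, had 28.0 and 121 CPM in WT and 15.3 and 14.2 in xrn4-3, and its log2 fold change of -2.34 ± 0.684 (adjusted p = 0.0294) did not pass the quasi-likelihood test (adjusted p = 0.147).

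In urt1-1 xrn4-3 against WT, 58 members (5.14%) rose and 18 (1.59%) fell, where 10% of all tested loci were raised and 1.05% lowered. Among the other loci of chromosomes 1 to 5 the shares were 10.3% and 1.03%. The quasi-likelihood test called 39 raised and 4 lowered members, or 3.45% and 0.354%, against 7.31% and 0.348% of all tested loci. The median log2 fold change was -0.35 over the tested members and 0.03 over the other loci, and 29.8% of members against 51.9% of the other loci had a positive value. These medians depend on the scaling of libraries. With the genome-mapped reads of each library as its size they were 0.35 and 0.77, and 10.5% of members and 19.9% of all tested loci were raised, and the members' median minus that of the other loci lay between -0.42 and -0.38 under all 5 scalings tried. This difference was -0.70 without urt1-1 xrn4-3 replicate 1 and -0.12 without its replicate 2. It was -0.31 without WT replicate 1, -0.50 without WT replicate 2 and -0.39 without either xrn4-3 library. Each of these fits leaves 1 genotype with 1 library, so shares of loci called are not compared for them here.

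The most raised member was again MLP165, which rose from the WT values above to 11.8 and 93.8 CPM, while urt1-1 had 1.30 and 4.93 CPM. Its log2 fold change was 5.0 ± 1.10 (adjusted p = 0.00176, and 0.0449 by the quasi-likelihood test). AT1G35560 had 4.52 and 4.90 CPM in WT, 5.06 and 7.67 in urt1-1, 32.4 and 135 in xrn4-3, and 118 and 94.5 in urt1-1 xrn4-3. All 4 xrn4-3 carriers lay above the 4 other libraries, and the log2 fold change of the double mutant was 4.50 ± 0.628 (adjusted p = 3.59e-08). AT5G35732 (chr5:13897940-13898387), an uncharacterized protein gene, had 1.19 and 0.834 CPM in WT and 17.8 and 21.9 in urt1-1 xrn4-3, with a difference of 4.27 ± 0.567 on the log2 scale (adjusted p = 1.66e-10). AT3G43430, a RING/U-box protein gene, had 0.593 and 1.98 CPM in WT, 2.60 and 4.93 in urt1-1, 4.79 and 17.6 in xrn4-3, and 17.3 and 38.8 in urt1-1 xrn4-3, without overlap between WT and any mutant. Its log2 fold change in the double mutant was 4.47 ± 0.703 (adjusted p = 5.97e-07).

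AT1G47400 (chr1:17385717-17386186), which had the lowest WT level of all members, rose from 2 and 0 reads in WT to 60 and 39 reads in urt1-1 xrn4-3. The ratio was 24.8, with a 95% counting interval from 6.70 to 208, and the adjusted p was 0.00011. Both acyl-transferase genes of the fourth set above rose. PMAT2 had 55.7 and 33.4 CPM in urt1-1 xrn4-3, 3.54 ± 0.611 above WT on the log2 scale. AT3G29680, on the opposite strand, had 4.59 and 4.27 CPM in WT and 41.6 and 33.6 in the double mutant, a log2 fold change of 3.08 ± 0.614 (adjusted p = 8.36e-05). The remaining members among the 10 most raised were AT1G45165, which overlaps AT1G45163, so that a read of the overlap counts at both (log2 fold change 3.31), the leucine-rich repeat gene AT4G06744 (3.30) and the F-box gene FBS3 (3.20). AT4G06744 had an adjusted p of 0.0587 by the quasi-likelihood test.

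**Figure D3:**
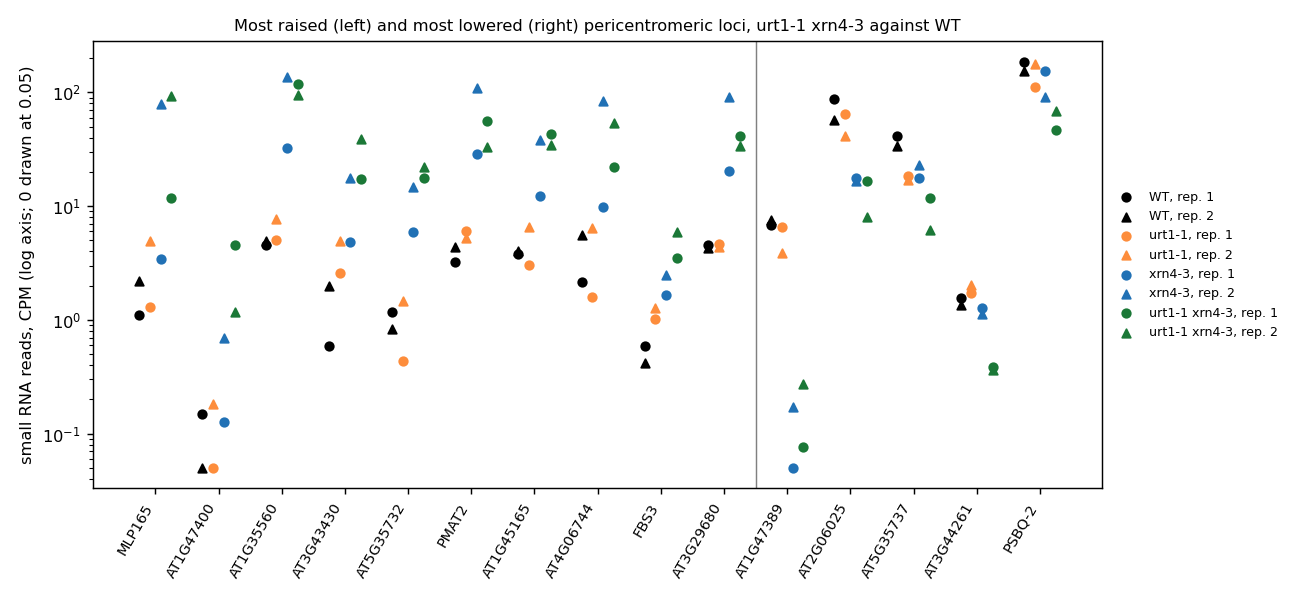
CPM in each library (log axis, 0 reads drawn at 0.05) for the 10 most raised and 5 most lowered members in urt1-1 xrn4-3 against WT, in order of fold change from left to right within each set. Circles are replicate 1 and triangles replicate 2, and colours mark the genotype. At AT1G35560 the 4 libraries with xrn4-3 lie between 32.4 and 135 CPM and the other 4 between 4.52 and 7.67 CPM, and at AT1G47389 the order is reversed.

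At all 58 raised members the double mutant libraries exceeded the higher WT library, and at 17 of the 18 lowered ones they were under the lower WT library. The called loci of the whole table were separated as often, 2473 of 2474 raised and 244 of 260 lowered ones. Among all tested loci, called or not, 30.1% lay above and 23.0% below both WT libraries, and among the tested members 15.5% and 33.5%. The exception was AT2G12462, with 43.3 and 1.98 CPM in WT. Regulatory genes named here after their values were seen include ABF2, a transcription factor of abscisic acid responses, with 2.89 and 2.40 CPM in WT and 16.5 and 15.4 in the double mutant (log2 fold change 2.58 ± 0.394, adjusted p = 1.62e-08). The abiotic stress regulators BZIP60 (unfolded protein response) and STOP1 (aluminium and acid tolerance) rose by 1.73 and 1.81, and the cambium homeobox gene WOX4 rose by 2.55. CAF1a, a deadenylase subunit of the CCR4-NOT complex, had 8.59 and 2.40 CPM in WT, 19.4 and 48.5 in xrn4-3 and 27.2 and 17.3 in urt1-1 xrn4-3. It rose by 2.62 in xrn4-3 (adjusted p = 0.0024, and 0.0596 by the quasi-likelihood test) and by 2.00 in the double mutant (adjusted p = 0.0181, and 0.0746 by the quasi-likelihood test). STOP1 also lost its call by that test (adjusted p = 0.0679).

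Among the lowered members, AT1G47389 had 6.89 and 7.50 CPM in WT, 6.51 and 3.84 in urt1-1, 0.00 and 0.173 in xrn4-3, and 0.0766 and 0.273 in urt1-1 xrn4-3. The 4 xrn4-3 carriers had at most 0.273 CPM and the 4 other libraries at least 3.84 CPM, and the double mutant differed from WT by -5.05 ± 0.629 (adjusted p = 1.7e-15). AT2G06025 fell to 16.5 and 8.07 CPM from 87.7 and 56.7 CPM in WT, a log2 fold change of -2.56 ± 0.516 (adjusted p = 7.97e-05). The Ta11-like retrotransposon AT5G35737 had 41.0 and 33.5 CPM in WT, 18.4 and 16.8 in urt1-1, 17.6 and 22.8 in xrn4-3, and 11.8 and 6.19 in urt1-1 xrn4-3. Every mutant library lay below both WT libraries, and the change passed the test in the double mutant (log2 fold change -2.06 ± 0.459, adjusted p = 0.000367) but not in either single mutant. The Pol polyprotein locus AT3G44261 fell by 1.95 (adjusted p = 0.00446). It had 21 and 13 reads in WT (1.556 and 1.355 CPM) and 5 and 12 reads in urt1-1 xrn4-3 (0.383 and 0.364 CPM). PSBQ-2, a subunit of the oxygen-evolving part of photosystem II, had 186 and 154 CPM in WT and 46.4 and 69.1 in urt1-1 xrn4-3, and its log2 fold change of -1.55 ± 0.528 (adjusted p = 0.0392) did not pass the quasi-likelihood test (adjusted p = 0.103).

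By annotated product, 1 class of members was transposon-derived. The class was set by words of the product name (transposon, MULE, gag, retrovirus, Ulp1, zinc knuckle, helicase-like), which can also match other genes. Of 29 members in this class 0 rose and 4 fell (13.8%) in urt1-1 xrn4-3, where 5.14% of all tested members rose and 1.59% fell. Among all tested loci 10% rose and 1.05% fell, and whether the class differs from these shares was not tested. Its median log2 fold change was -0.63, beside -0.35 for all tested members and 0.01 for all tested loci. The 4 were AT5G35737, AT3G44261, the GAG/POL/ENV polyprotein locus AT1G42190 (-1.47) and the Ulp1 protease-like locus AT3G31910 (-1.37), and the latter 2 did not pass the quasi-likelihood test. The 66 loci with such product words outside the windows had 4 raised and 0 lowered, with a median of -0.04. Of 13 ribosomal protein members 3 rose and 0 fell, AT3G44010 by 1.66, AT2G09990 by 1.46 and AT3G43980 by 1.30. The median of the 13 was -0.15. Outside the windows 56 of 319 ribosomal protein loci rose (17.6%) and 3 fell, with a median of 0.32. Genes for F-box proteins, which choose targets for ubiquitination, had 1 raised and 2 lowered of 25, against 36 and 8 of 491 outside the windows. Kinase genes had 2 raised and 0 lowered of 30, against 139 and 7 of 1312 outside. Defensin-like and self-incompatibility genes had 0 raised and 2 lowered of 9, with a median of -1.21, and outside the windows 5 raised and 8 lowered of 87 (9.20% lowered), with a median of -0.56. Of the 247 tested members with an unknown or hypothetical product, 12 rose and 3 fell, against 249 and 26 of 1693 outside, and of 8 pentatricopeptide repeat genes 0 passed the test, against 7 of 260 outside. The 12 genes of heterochromatic siRNA formation and DNA methylation, which lie across the genome, had 0 raised and 0 lowered. Among all tested loci the shares were 10% and 1.05%, and the median of the 12 was 0.03.

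Nearly all calls were at single-copy members. Of the 172 members with mostly mitochondrial or mostly repeated sequence, 0 rose and 0 fell in xrn4-3 or in urt1-1 xrn4-3, whereas 35 of 509 mostly repeated loci outside the windows rose and 10 fell in urt1-1 xrn4-3. Of 906 tested single-copy members, 57 (6.29%) rose and 17 (1.88%) fell, against 10.3% and 0.999% of the single-copy loci outside. The median log2 fold change was -0.33 for the mitochondrial group, -0.62 for the repeated group and -0.28 for the single-copy group, against 0.04 for single-copy loci outside. The most repeated of the raised members had 31.9% of its windows elsewhere. The raised share was lower in the inner and middle parts of the windows than in the outer part. With each window cut into 3 parts by distance from its middle, 5 of 190 tested members of the inner part rose (2.63%), 7 of 311 of the middle part (2.25%) and 46 of 628 of the outer part (7.32%). The inner part includes all 63 members of mostly mitochondrial sequence, of which 0 rose, so position and sequence group are not separate here.

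**Figure D4:**
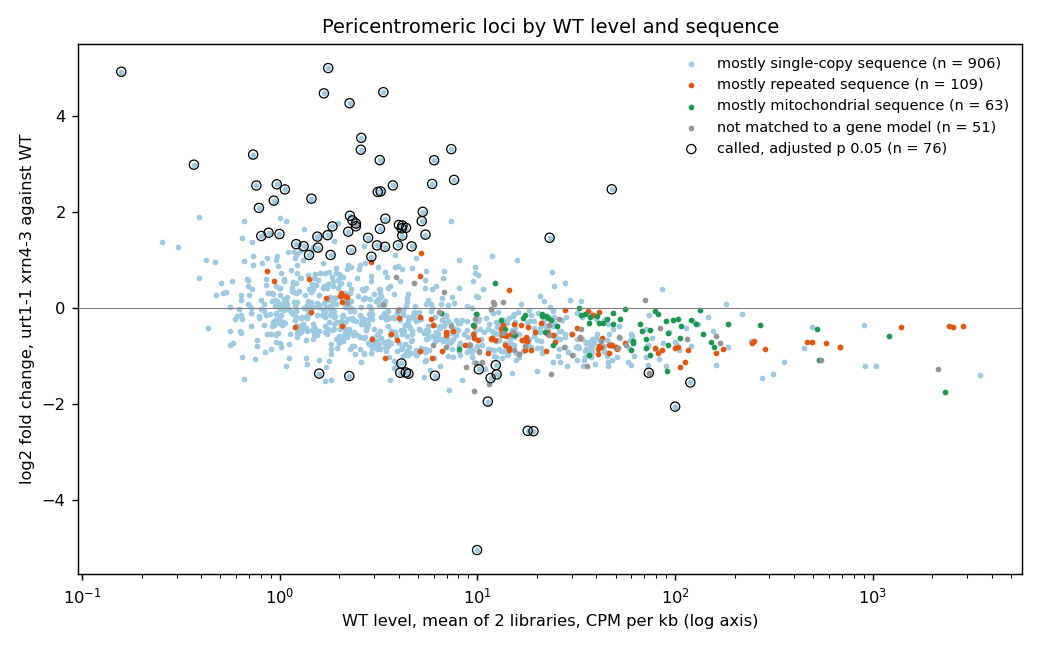
Log2 fold change in urt1-1 xrn4-3 against WT for the 1129 tested members, plotted against the WT level in CPM per kb (log axis). Colours mark mostly single-copy (906), repeated (109), mitochondrial (63) and unmatched (51) loci, and black rings mark the 76 called members. Of the 58 rings above 0, 10 lie above 4.43 CPM per kb, as do 588 of the 1129 members. The repeated and mitochondrial loci hold no ring. The same WT libraries enter both axes.

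The WT level moved with these shares. The same WT libraries set both the level and the fold change, so the 2 are not independent. A trend over levels therefore cannot be read as an effect of the level. In quartiles of the WT level over all loci of chromosomes 1 to 5, 590 of the 1136 members fell into the highest, above 4.43 CPM per kb. There 1.70% of the tested members rose and 2.21% fell, against 9.26% and 2.91% of the other loci, and the median log2 fold change was -0.57 against -0.38. In the lowest quartile 7.28% of members and 8.68% of other loci rose, in the next 6.92% and 10.6%, and in the one above it 11.3% and 12.8%. The gap between members and other loci was thus widest in the highest quartile. The parts of WT level, repeats and position in it were not tested.

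Between urt1-1 xrn4-3 and xrn4-3, 7 members rose (0.620%) and 2 fell (0.177%), where 1.73% of all tested loci were raised and 0.311% lowered. The quasi-likelihood test called 0 members, against 0.166% of all tested loci raised and 0.00404% lowered, with 79 members (7.0%) and 9.59% of all loci at an unadjusted p under 0.05. PMI1, needed for chloroplast movement, had 18.5 and 16.1 CPM in WT, 13.9 and 15.9 in urt1-1, 16.0 and 30.2 in xrn4-3, and 132 and 75.7 in urt1-1 xrn4-3. Only the double mutant libraries lay above 30.2 CPM, with a log2 fold change of 2.17 ± 0.505 against xrn4-3 (adjusted p = 0.00472, and 0.105 by the quasi-likelihood test). AT2G10930, an uncharacterized protein gene, had 2 and 3 reads in xrn4-3 and 39 and 44 in urt1-1 xrn4-3 (log2 fold change 2.99 ± 0.864, adjusted p = 0.0128). AT1G44760 rose by 2.19 (adjusted p = 0.0448), but its 20.3 and 33.4 CPM in the double mutant overlapped with 6.30 and 30.4 in WT. BGLU34, a beta-glucosidase gene, had 10.7 and 1.38 CPM in xrn4-3 and 0.766 and 1.15 in urt1-1 xrn4-3, so that its fall of 2.61 (adjusted p = 0.0436) rested on xrn4-3 replicate 1.

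The interaction term, the change from xrn4-3 to urt1-1 xrn4-3 minus the change from WT to urt1-1, called 0 members upward and 1 downward, where 0.0890% and 0.0324% of all tested loci were called. The quasi-likelihood test called 0, with 32 members (2.83%) and 4.66% of all tested loci at an unadjusted p under 0.05. Neither QQS, an orphan gene with a role in starch content, nor PUM9, a Pumilio-family RNA-binding protein gene, passed the test in any comparison. QQS had 8.15 and 6.04 CPM in WT, 6.37 and 6.21 in urt1-1, 3.91 and 4.49 in xrn4-3, and 4.75 and 3.12 in urt1-1 xrn4-3. The xrn4-3 carriers lay below the other libraries, with a log2 fold change of -0.88 ± 0.388 in the double mutant (adjusted p = 0.145). PUM9 ranged from 1.76 to 3.47 CPM over the 8 libraries.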

How the data were processed

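Small RNA was sequenced from 8 libraries, 2 for each of 4 genotypes. Per the labels and methods, the authors took 3 µg of RNA, selected 18 to 30 nt, discarded reads outside 14 to 30 nt, aligned the rest with Bowtie 1.0.0 to TAIR10 (at most 1 mismatch, at most 50 loci, best alignments) and counted them on mRNA loci with bedtools 2.17.0 without strand. CASAVA 1.8.2 and edgeR 3.26.5 are named in the submitters' processing notes. The deposited raw counts were used throughout. A second set of columns, a normalized signal that the authors deposited as CPM, was not used.

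Counts of all 8 libraries were fitted with edgeR 4.0.16 in R 4.3.3 (TMM, filterByExpr with a count minimum of 10, 1 coefficient per genotype, likelihood ratio test, Benjamini-Hochberg over 24722 loci, threshold 0.05). The fitted common dispersion, 0.106, corresponds to a coefficient of variation of 0.325 between replicates. The quasi-likelihood test is given beside it, and DESeq2 1.42.0 was an alternative. On simulated data for urt1-1 xrn4-3 against WT (24520 loci, 200 changed by 3 on the log2 scale) the likelihood ratio test found 192 with 37 false calls, and the quasi-likelihood test found 183 with 6. In this simulation the false share of the likelihood ratio calls was thus above the threshold of 0.05, and that of the quasi-likelihood calls was below it. Values per library were compared by exact permutation in Python 3.11.15 with scipy 1.17.1, numpy 2.4.6 and pandas 2.3.3, and figures were drawn with matplotlib 3.10.9. Fold changes have standard errors of the model coefficients. Intervals for ratios of reads cover counting error only.

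Positions are those of the deposited table (TAIR10). Sequences, products and recurring 21-nt windows (exact matches on either strand of the nuclear and organelle genomes) came from RefSeq TAIR10.1, joined by locus code (24447 of the 24649 loci of chromosomes 1 to 5). Named were the 10 members with the highest WT level, the 10 most raised and 5 most lowered in urt1-1 xrn4-3, the 3 most raised and 3 most lowered in xrn4-3 and against xrn4-3, the interaction calls, QQS and PUM9. Most raised and lowered members had to have a mean of 10 reads per library and no overlap between the 2 genotypes compared. The members and lists were chosen with earlier results of these data known.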

Additional observations from a re-analysis of the deposited data

Results flagged for a closer look

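AT3G42628 (phosphoenolpyruvate carboxylase-related, mostly repeated sequence) stood out because the effect of urt1-1 differed between the backgrounds with and without functional XRN4. It had 7 and 4 reads in WT, 11 and 9 in urt1-1, 11 and 9 in xrn4-3, and 4 and 6 in urt1-1 xrn4-3, or 0.519 and 0.417, 1.59 and 1.64, 1.39 and 0.777, and 0.306 and 0.182 CPM. Both single mutants lay above both WT libraries and the double mutant lay below them. The interaction was -3.93 ± 0.966 on the log2 scale (edgeR likelihood ratio test, adjusted p = 0.0305), at a depth of 4 to 11 reads per library. It did not pass the quasi-likelihood test (adjusted p = 0.998).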

How the results depend on the processing

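Percentages here are of tested members. The share of all tested loci under the same setting is in parentheses for raised and lowered shares, other than those inside the window edges. For xrn4-3 against WT, 2.13% were raised (4.19%), and 1.33% by DESeq2 (3.36%), 0.886% by the quasi-likelihood test (1.99%), 1.33% by that test with the replicate block (2.96%) and 1.12% at least 0.5 Mb inside the window edges. Lowered were 0.531% (0.259%), and 0.178% with genome-mapped reads as library sizes (0.0851%), 0.177% with library size only (0.0890%), 0.0886% by the quasi-likelihood test (0.0202%) and 0.177% by it with the block (0.0607%). For urt1-1 xrn4-3 against WT, 5.14% were raised (10%), and 3.10% by DESeq2 (6.89%), 10.5% with genome-mapped reads (19.9%) and 3.03% inside the edges. Lowered were 1.59% (1.05%), and 0.267% with genome-mapped reads (0.101%), 0.620% with library size only (0.615%), 0.354% by the quasi-likelihood test (0.348%) and 3.01% with the replicate block (2.11%). For urt1-1 xrn4-3 against xrn4-3, 0.620% were raised (1.73%), and 1.16% with genome-mapped reads (2.42%) and 0.266% with library size only (0.760%). By the quasi-likelihood test 0.0% were raised (0.166%), by it with the block 0.177% (0.918%), and with the replicate block 1.15% (2.54%). Lowered were 0.177% (0.311%), and 0.0886% by DESeq2 (0.275%), 0.354% with RLE size factors (0.340%) and 0.110% with at least 10 reads in every library (0.300%). With the replicate block 0.709% were lowered (0.607%). The value was 0.0% with genome-mapped reads (0.101%), by the quasi-likelihood test without (0.00404%) or with the block (0.0647%), and inside the edges. The single interaction call (0.0886%) was 0.0% by DESeq2, the quasi-likelihood test with or without the block, genome-mapped reads, at least 10 reads in every library and without members of over 50% recurring windows, and 0.159% of fewer members inside the edges. The causes were not tested.

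With each library left out in turn, raised and lowered members ranged from 0.0% to 0.0% and from 0.0% to 0.0880% in urt1-1, from 0.704% to 2.64% and from 0.264% to 1.06% in xrn4-3, from 2.20% to 5.73% and from 0.353% to 3.70% in urt1-1 xrn4-3, and from 0.0881% to 1.23% and from 0.0% to 1.41% against xrn4-3. Interaction calls ranged from 0.0% to 0.353%. These fits leave a genotype without a replicate, and the shares of all tested loci moved with the library left out as well. The ranges of calls are therefore not read as specific to the members. The log2 ratio of medians ranged from -0.37 to -0.20 for xrn4-3 carriers and from -0.20 to 0.02 for urt1-1 carriers, and the log2 share of reads from -0.20 to 0.0046 and from -0.17 to 0.05. The 3 differences that turned positive (0.0188, 0.00457 and 0.0521) did so without urt1-1 xrn4-3 replicate 2. Without the members of over 50% recurring windows, an alternative chosen after seeing the data, the log2 share of reads for xrn4-3 carriers was -0.24, with an unadjusted exact permutation p of 0.0286, the smallest possible, and the counts of calls in the genotype comparisons were the same as with them.

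The replicate numbers are shared by the labels of all genotypes. Deviations of same-numbered libraries correlated across loci at r = 0.366 for WT and urt1-1 xrn4-3, 0.327 for urt1-1 and urt1-1 xrn4-3, 0.147 to 0.148 for urt1-1 with WT and with xrn4-3, and 0.0325 to 0.0383 for xrn4-3 with urt1-1 xrn4-3 and with WT, and the sources used here do not tie a number to a growth time shared by genotypes, so the numbers were not taken as pairs. With splits kept within the replicate numbers, the ratio of medians for xrn4-3 carriers had an exact permutation p of 0.0556 (adjusted p = 0.222 over 4 tests), the smallest that 36 splits allow. Of the 26 named changes, 354 of 426 values under the alternatives kept their call, 72 lost it and 0 reversed. AT1G47400 and other loci of few reads are limited by depth, and the RING/U-box pair by shared sequence.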
